A study of Mus musculus with 8 samples.

Results

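The genes described here are 10 genes of proximal tubule reabsorption: Lrp2, Cubn, Amn, Dab2, Slc34a1, Slc5a1, Slc5a2, Slc6a19, Slc3a1 and Aqp1. They were chosen by name, and all 10 of them have rows among the 24063 gene symbols in the tables. RNA was sequenced from mouse tubuloids, which are tubule fragments of whole kidney grown between layers of Matrigel with renal growth factors. All 8 libraries carry the genotype Pkd2fl/fl Pax8rtTA TetOCre mTmG and come from kidneys labeled postnatal day 7 to 10. From culture day 3 the cultures received either doxycycline (DOX, 4 libraries) or the solvent (DMSO, 4 libraries) for 3 days, and RNA was taken after 7 days of culture. DOX switches on Cre through the reverse transactivator rtTA, which is driven by the renal epithelial promoter of Pax8, so that floxed Pkd2 can be removed in those cells and not in cells without the promoter's activity. The study describes unrecombined cells left after DOX, so the cultures are mosaic. DMSO cultures therefore hold the same floxed alleles with no DOX. The libraries are named here by group and by the number in their labels.

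The proximal tubule reclaims most of what the glomerulus filters. Megalin (Lrp2) and cubilin (Cubn) are large apical receptors that bind filtered proteins and vitamin carriers. Amnionless (Amn) anchors cubilin in the membrane, and the adaptor Dab2 links megalin to clathrin. Sodium-coupled carriers take up phosphate (Slc34a1), glucose (Slc5a2 in the early segment, Slc5a1 in the late segment) and neutral amino acids (Slc6a19). Slc3a1 is the heavy chain of the cystine and dibasic amino acid carrier, whose light chain is Slc7a9. Aquaporin 1 (Aqp1) lets water follow. The factor HNF4A is a known regulator of many of these genes.

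The promoter window of Slc3a1 is shown because it holds a letter match to an HNF4A site. It is the 250 bases before the RefSeq start on GRCm38.p6, on the plus strand, with CAAAGTCCA, searched on both strands, in capitals.
Slc3a1, chr17:85028097-85028346: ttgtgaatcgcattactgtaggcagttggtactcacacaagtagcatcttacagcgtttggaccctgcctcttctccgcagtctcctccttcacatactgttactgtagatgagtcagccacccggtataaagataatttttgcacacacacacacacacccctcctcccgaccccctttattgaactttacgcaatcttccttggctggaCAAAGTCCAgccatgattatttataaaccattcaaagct
RefSeq windows matched 9 of the 10 genes, with 10 windows in all. Slc5a2 had no entry. CAAAGTCCA stood 39 bases before the start of Slc3a1, and 0.384% of 32851 mouse promoter windows held it; no other of the 10 windows did. Counted over both strands, with overlapping matches included, the Slc3a1 window also held 3 matches to TATAAA, a motif found in 12.4% of windows. GGGCGG, present in 32.7% of windows, was found before Lrp2, Amn and Aqp1. A further motif that was searched is not reported here. A match is a description of the letters and not of a bound site.

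The libraries held 63922677 to 102716313 transcript counts. DMSO 20 and DOX 19 detected 13243 and 13599 genes above 0 counts, against 17054 to 17903 in the other 6 libraries. This touches the reabsorption genes directly. Of 5313 genes with a mean normalized count of 10 to 500 in the other 6 libraries, 51.9% were at 0 in DMSO 20 and 48.1% in DOX 19. The share in the other libraries was 1.32% to 7.74%. Lrp2, Cubn, Amn, Slc5a1, Slc6a19 and Aqp1 were at 0 in DMSO 20, and the same genes except Aqp1 were at 0 in DOX 19. A count of 0 allows up to 3 counts, or 0.0469 CPM in DMSO 20 and 0.0399 CPM in DOX 19, for counting error only. Whether the 2 libraries lacked the transcripts or failed to capture them was not tested, so differences are given with and without them. Pkd2 had 4776 to 6586 counts in the DMSO and 4404 to 7135 in the DOX libraries (DESeq2 log2 fold change -0.31, SE 0.215, p adjusted by Benjamini-Hochberg (BH) over all genes = 0.999). These counts cover the whole transcript and do not resolve the floxed exons.

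**Figure D1:**
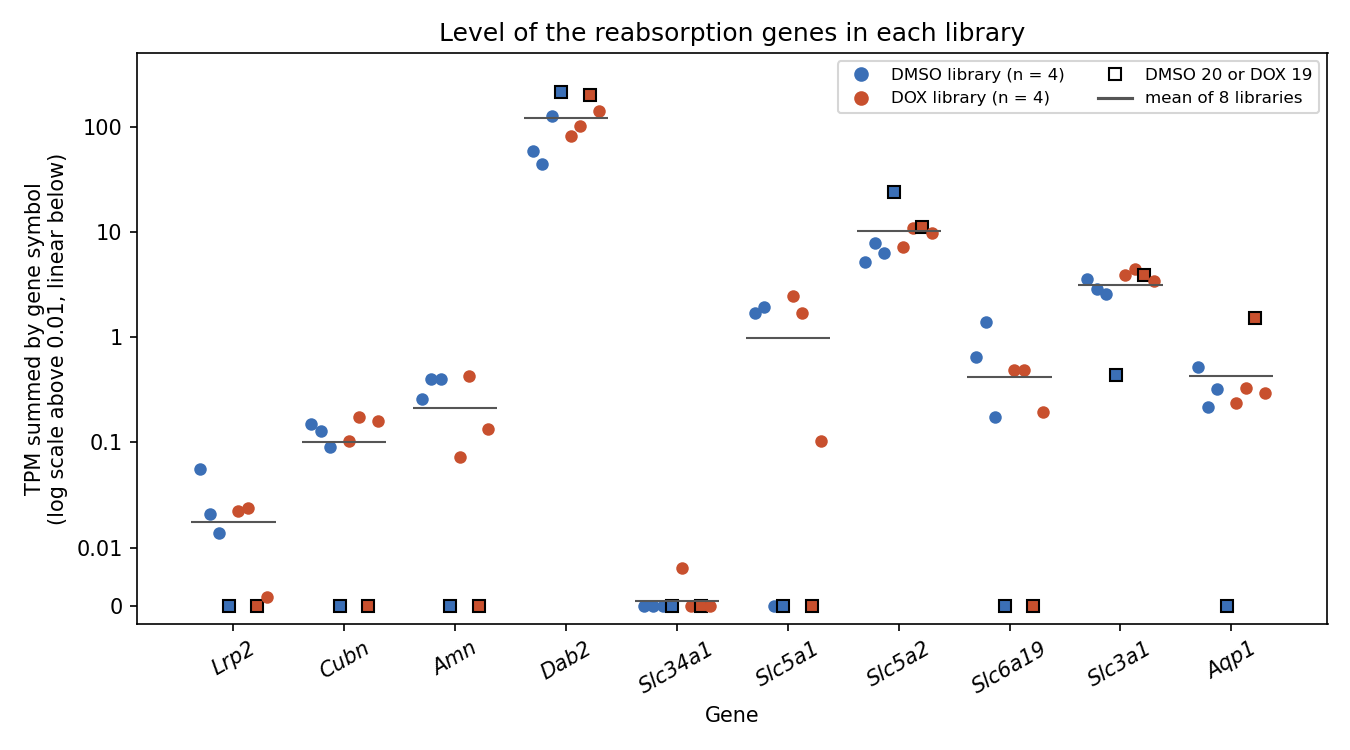
TPM of each reabsorption gene in each library, summed by gene symbol, on an axis that is logarithmic above 0.01 and linear below. Points are single libraries, squares mark DMSO 20 and DOX 19, and lines give the mean of 8 libraries; Dab2 lies highest, at 44.5 to 213 TPM, and Slc34a1 was above 0 in DOX 9 only.

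The 10 genes differed in level over several orders of magnitude. With 1 transcript taken per gene, mean TPM (a level scaled for transcript length and library size) over 8 libraries was 29.5 ± 14.9 (SD) for Dab2, 10.2 ± 5.85 for Slc5a2 and 3.13 ± 1.23 for Slc3a1. The Slc5a2 value may include reads of an overlapping gene described further on. Each of these values, uncorrected for that overlap, exceeded that of the next gene in the order in 8 of 8 libraries. Slc5a1 followed at 0.982 ± 1.05, Aqp1 at 0.430 ± 0.466 and Slc6a19 at 0.421 ± 0.455. Their order changed between libraries, with Slc5a1 above Aqp1 in 4 libraries and Aqp1 above Slc6a19 in 3. Amn (0.212 ± 0.184), Cubn (0.0914 ± 0.0656 in DMSO and 0.109 ± 0.0792 in DOX), Lrp2 (0.0174 ± 0.0188) and Slc34a1 (0.00082 ± 0.0023) came last. Cubn exceeded Lrp2 in 6 of 8 libraries, and both were at 0 in the remaining 2. Dab2 made up 42.2% to 75.9% of the summed TPM of the 10 genes with 1 transcript taken per gene, and 75.1% to 92.7% with its 4 transcripts summed. In these bulk samples fewer cells of a type and less RNA per cell cannot be told apart.

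The endocytic receptors were low, with at most 96 counts in a library, while their adaptor was abundant. Lrp2 (chr2:69424335-69586029, mm10), the megalin gene, had 44, 12, 10 and 0 counts in DMSO 3, 5, 15 and 20 and 17, 18, 0 and 1 in DOX 9, 12, 19 and 21. Its highest library was a DMSO library, but the groups overlapped. Cubn (chr2:13276338-13491876) had 85, 53, 48 and 0 counts in DMSO 3, 5, 15 and 20. In DOX 9, 12, 19 and 21 it had 57, 96, 0 and 72. Apart from the zeros in DMSO 20 and DOX 19 the Cubn counts lay in 1 range. Amn (chr12:111271096-111276426), the cubilin anchor, had 22, 25, 32 and 0 counts in the same DMSO libraries and 6, 35, 0 and 9 in the DOX libraries. DOX 9 and DOX 21 were below the 3 DMSO libraries with counts, and DOX 12 was not. Log2 fold changes in DESeq2 were -1.15 (SE 1.82) for Lrp2, 0.09 (SE 1.63) for Cubn and -0.98 (SE 1.67) for Amn, each with an adjusted p of 0.999. Without DMSO 20 and DOX 19 they were -1.13 (SE 1.21), 0.11 (SE 0.482) and -0.97 (SE 0.894). The TPM ratio of Lrp2 to Cubn was 0.0102 in DOX 21, where Lrp2 had 1 count, and 0.137 to 0.379 in the other 5 libraries with both. That of Cubn to Amn ranged from 0.223 in DMSO 15 to 1.41 in DOX 9.

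Dab2 (chr15:6299788-6440715) had 11901, 6526, 23836 and 25920 counts in DMSO 3, 5, 15 and 20. In DOX 9, 12, 19 and 21 it had 16039, 19527, 30007 and 22484 counts. The lowest library was DMSO 5 and the highest DOX 19, and the groups overlapped. Mean normalized counts were 18689 ± 12141 in DMSO and 21239 ± 9608 in DOX (SD, n = 4). The log2 fold change was 0.18 (SE 0.562, 95% interval -0.92 to 1.29, BH-adjusted p = 0.999), and 0.30 (SE 0.530) without DMSO 20 and DOX 19. Dab2 is the one member with several transcripts in the tables, and the counts of its 4 transcripts differed by 1.13- to 1.18-fold within a library. How reads were divided between transcripts is not given in the sources used here, so the summed level may count reads more than once. Dab2 is also expressed outside the proximal tubule. The summed stromal marker TPM was highest in DMSO 15 (3827, against 301 to 1056 elsewhere), where Dab2 was at 126 TPM. Dab2 was higher in DMSO 20, DOX 19 and DOX 21 (213, 198 and 142 TPM). The part of other cells in the Dab2 level was not tested.

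The renal phosphate carrier was close to silent. Slc34a1 (chr13:55399622-55414695) had 1 count in DOX 9 and 0 in the other 7 libraries, so no fold is given. Slc34a3, the other renal sodium-phosphate cotransporter of this family, was at 0 in all libraries. The ubiquitous phosphate carrier Slc20a1 was high instead, with 5262 to 21079 counts in DMSO and 7109 to 32852 in DOX libraries. Its log2 fold change of 0.48 (SE 0.714, BH-adjusted p = 0.999) did not pass the test.

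The 2 glucose cotransporters had different levels across libraries. Slc5a1 (chr5:33104219-33162699), the high-affinity form, had 334, 278, 0 and 0 counts in DMSO 3, 5, 15 and 20 and 476, 323, 0 and 16 in DOX 9, 12, 19 and 21. It was thus at 278 or more in 2 libraries of each group and at 16 or fewer in the other 2. The log2 fold change was 0.14 (SE 2.27, 95% interval -4.32 to 4.60, BH-adjusted p = 0.999), and 0.18 (SE 2.08) without DMSO 20 and DOX 19. Acox2, a peroxisomal oxidase gene, had the pattern nearest to Slc5a1, at a root mean square difference of 0.661. Slc5a2, the low-affinity form that is the hallmark of the early segment, had 590, 647, 675 and 1632 counts in DMSO 3, 5, 15 and 20. In DOX 9, 12, 19 and 21 it had 790, 1184, 953 and 883. In these counts DMSO 20 was the highest library and the other DMSO libraries were the lowest 3; after scaling, DOX 9 (671) fell below DMSO 15 (677). The log2 fold change was -0.17 (SE 0.497, BH-adjusted p = 0.999), and without DMSO 20 and DOX 19 it was 0.39 (SE 0.259, adjusted p = 0.871).

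The Slc5a2 counts share sequence with a neighbor. The gene lies on chr7:128265683-128272430 (mm10), and the 3′ end of BC017158 meets it from the opposite strand. The 2 transcripts share 597 exonic bases, which are 26.2% of the Slc5a2 transcript and 22.7% of the BC017158 transcript. Of these, 351 are in the Slc5a2 coding sequence and 0 in that of BC017158. The neighbor had 1635, 1834, 1857 and 4664 counts in DMSO 3, 5, 15 and 20 and 2072, 3093, 2553 and 2254 in DOX 9, 12, 19 and 21. The count ratio of Slc5a2 to BC017158 was 0.350 to 0.392 in all 8 libraries, a 1.12-fold range, while BC017158 itself spanned 2.85-fold. Of 14057 genes, BC017158 was also the nearest in pattern to Slc5a2 (root mean square difference 0.0551). Impact (0.0826) and Pik3ca (0.134) came next, so a near pattern was not limited to the overlapping neighbor. The library kit does not mark strand, so reads of the 2 genes over the shared bases cannot be told apart. If BC017158 reads were spread evenly over its transcript, those over the shared bases would equal 58.0% to 64.9% of the Slc5a2 counts. Whether they were spread evenly was not tested. What share of the Slc5a2 counts came from BC017158 is not known, so the level of Slc5a2 is uncertain.

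**Figure D2:**
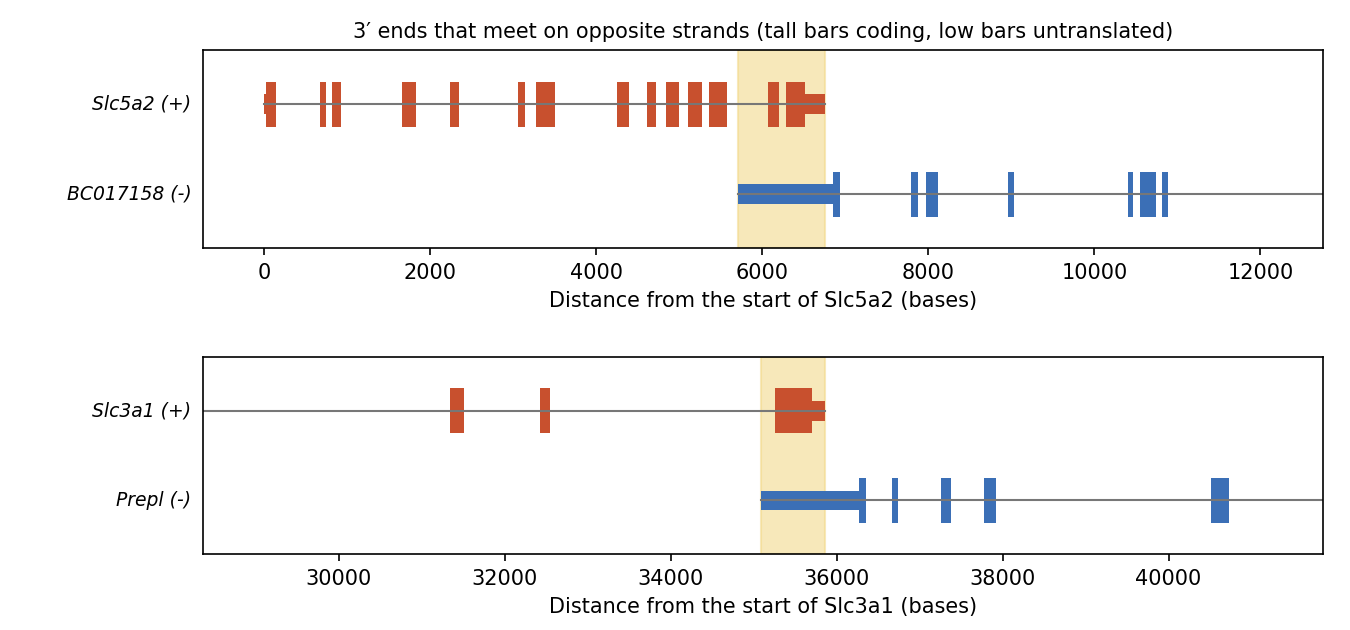
Exons of Slc5a2 with BC017158 and of Slc3a1 with Prepl, in bases from the start of Slc5a2 or Slc3a1, with coding parts tall and untranslated parts low. Shading marks the span where the transcripts of opposite strands meet, which holds 597 shared exonic bases for Slc5a2 and 601 for Slc3a1; partner genes run on past the right edge.

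The amino acid carriers also divided into a low and a higher gene. Slc6a19 (chr13:73679745-73700780), which carries neutral amino acids, had 79, 124, 20 and 0 counts in DMSO 3, 5, 15 and 20 and 58, 58, 0 and 19 in DOX 9, 12, 19 and 21. The highest libraries were DMSO 5 and DMSO 3, and the log2 fold change was -0.98 (SE 1.70, BH-adjusted p = 0.999), or -0.95 (SE 0.800) without DMSO 20 and DOX 19. Its trafficking partner Tmem27 had 13 to 2863 counts in the 6 libraries with counts, and the TPM ratio of Slc6a19 to Tmem27 was 0.796 in DMSO 15, the lowest of them in Tmem27, and 0.0213 to 0.171 in the other 5. Slc3a1 (chr17:85028347-85064241) had 416, 245, 279 and 31 counts in DMSO 3, 5, 15 and 20. In DOX 9, 12, 19 and 21 it had 439, 494, 339 and 314. DMSO 20 was about an order of magnitude below the others, and the groups overlapped through DMSO 3. Mean normalized counts were 238 ± 145 in DMSO and 359 ± 23.5 in DOX (SD, n = 4). The log2 fold change was 0.59 (SE 0.618, 95% interval -0.62 to 1.80, BH-adjusted p = 0.999), and 0.22 (SE 0.305) without DMSO 20 and DOX 19. The light chain Slc7a9 was at 0 in DMSO 15, DMSO 20 and DOX 19 and had 18 to 87 counts elsewhere. Where both chains were counted, the TPM of Slc3a1 was 2.21 to 19.2 times that of Slc7a9. Wdr5 was the nearest gene to Slc3a1, at a root mean square difference of 0.1785, with Mettl16 next at 0.1792.

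Slc3a1 shares 601 exonic bases, 26.5% of its transcript, with Prepl on the opposite strand. Of these, 441 are in the Slc3a1 coding sequence. Prepl had 5157 to 14415 counts. These are summed over several transcripts, so reads may be counted more than once, as for Dab2. At least 1 of these transcripts shares 0 bases with Slc3a1. Unlike that of Slc5a2, the ratio to the neighbor was not constant, ranging from 0.00348 in DMSO 20 to 0.0657 in DOX 19. In the other 6 libraries the ratio was between 0.0286 and 0.0377, and there too the reads over shared bases cannot be told apart.

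**Figure D3:**
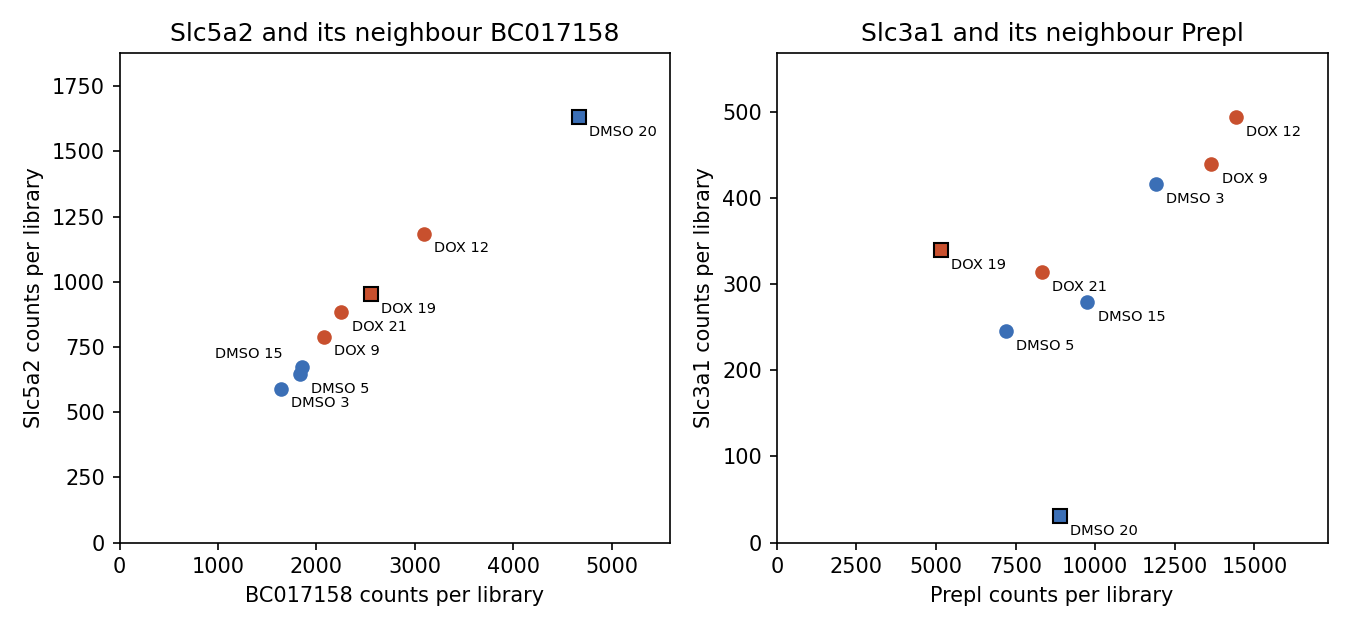
Counts of Slc5a2 against BC017158 (left) and of Slc3a1 against Prepl (right), 1 point per library, with DMSO blue, DOX red, and squares for DMSO 20 and DOX 19. Slc5a2 stays at 0.350 to 0.392 times BC017158 in every library. The ratio of Slc3a1 to Prepl leaves the range of the other libraries in DMSO 20 and DOX 19. The Slc3a1 count itself leaves that range in DMSO 20 only.

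The water channel gene Aqp1 (chr6:55336299-55348555) had 72, 22, 42 and 0 counts in DMSO 3, 5, 15 and 20 and 32, 44, 160 and 32 in DOX 9, 12, 19 and 21. DOX 19 stood alone as the highest library, and the nearest gene in pattern was 4732416N19Rik (root mean square difference 0.449). The log2 fold change was 1.05 (SE 1.27, BH-adjusted p = 0.999), and -0.50 (SE 0.656, adjusted p = 0.961) without DMSO 20 and DOX 19. Red cells and endothelium also express Aqp1. The erythroid markers, of which 7 of 8 were above 0 in DOX 19, DMSO 5 and DMSO 15, summed to 25.1 TPM in DOX 19 and 0.339 to 1.37 TPM in the other libraries. Hba-a1 and Hbb-bs had 131 and 194 counts in DOX 19, against at most 16 and 5 elsewhere. The endothelial markers Pecam1 and Cdh5 were at 0 in DOX 19, where 3 of 5 endothelial markers were above 0 and summed to 44.5 TPM, inside the range of the other libraries (22.7 to 161). The part of these cells in the Aqp1 count was not tested.

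None of the 10 genes was called between DOX and DMSO. Of the 9 with an adjusted p, 0 reached an adjusted p of at most 0.05 with at least 1.5-fold in DESeq2 (smallest adjusted p = 0.999), against 0.147% of 17011 genes tested. At an unadjusted p under 0.05 the count was also 0, against 4.67% of 19268 genes. No gene had groups that did not overlap, against 2.71% of 17633 genes whose mean count was 2 or more. In edgeR, 9 of the genes were tested and 0 were called (smallest adjusted p = 0.999), beside 0% of 15562 genes called and 476 at an unadjusted p under 0.05. The fold was above 0 for 5 genes and below 0 for 4, with a median log2 fold change of 0.09, against -0.07 over all genes tested, of which 44.4% were above 0. The 95% intervals of Lrp2, Cubn, Amn, Slc5a1 and Slc6a19 all reached beyond 2 on the log2 scale in both directions with 4 against 4 libraries. With 3 against 3 the SE fell from 1.63 to 0.482 for Cubn, from 1.70 to 0.800 for Slc6a19 and from 1.67 to 0.894 for Amn, and those intervals still crossed 0.

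**Figure D4:**
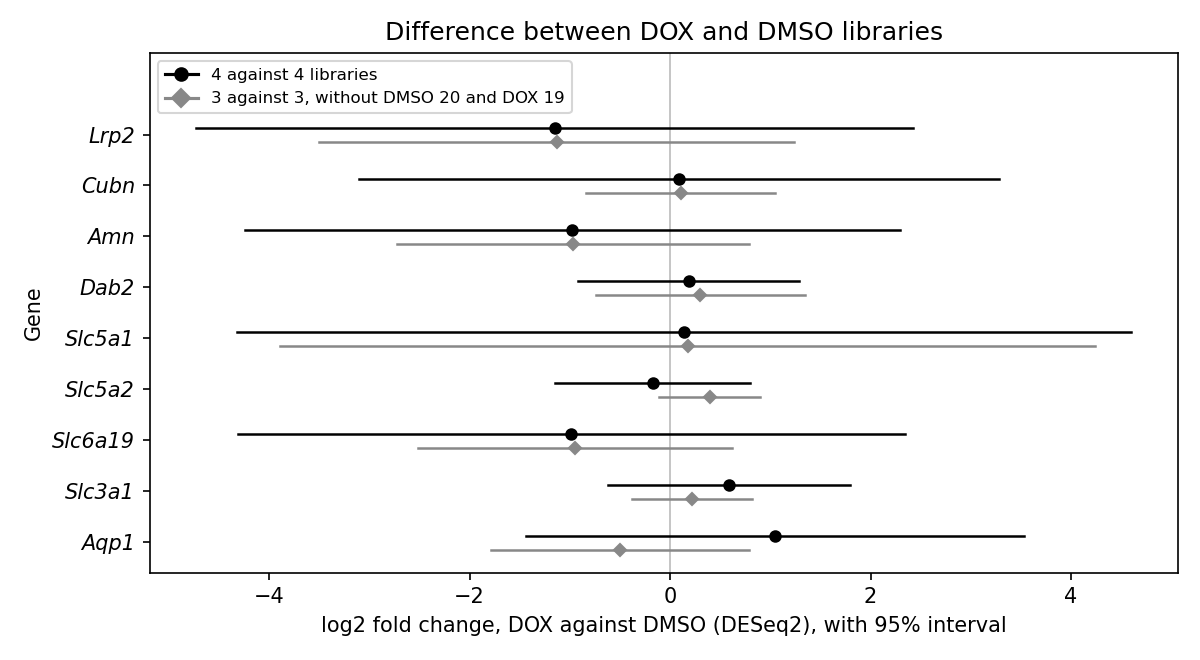
Log2 fold change of DOX against DMSO for the 9 reabsorption genes with a fold, with 95% intervals from DESeq2. Black circles use 4 against 4 libraries and gray diamonds 3 against 3, without DMSO 20 and DOX 19; every interval crosses 0, and Slc5a2 and Aqp1 change sign between the fits.

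Other proximal genes were grouped into 7 lists. On the scale of TPM summed over the transcripts of a gene, which is used for all genes of these lists, 10 of the 13 endocytosis genes had a mean of at least 10 TPM, against 23 of the 78 genes of the other lists. Across all 91 genes, 80 had an adjusted p and 1 was called, beside 0.147% of all genes tested. That gene, Slc3a2, is the widely expressed heavy chain of several amino acid exchangers and not a gene of the proximal tubule alone. It was higher in DOX, with 16465 to 26775 counts in the DMSO and 27619 to 60145 in the DOX libraries (log2 fold change 0.84, SE 0.203, BH-adjusted p = 0.031). The call was lost in edgeR (adjusted p = 0.999) and with at least 10 counts in every library required (adjusted p = 0.058). Leaving out DMSO 3, DMSO 5, DMSO 20, DOX 12 or DOX 21 also ended it. The log2 fold change stayed between 0.69 and 0.95 with any 1 library left out. At an unadjusted p under 0.05 there were 5 of 84 genes (5.95%), near the 4.67% of all genes. Of the 80 genes, 29 were above 0 and 51 below, with a median log2 fold change of -0.16, beside 44.4% of all genes tested above 0 and a median of -0.07. By list, the counts with an adjusted p and the counts called were 13 and 0 for endocytosis, 12 and 0 for phosphate, 9 and 0 for glucose, 12 and 1 for amino acids, 9 and 0 for water and sodium, 7 and 0 for proximal factors, and 18 and 0 for other proximal genes.

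All 13 endocytosis genes were above 0 in all 8 libraries, led by the recycling GTPase Rab11a (mean 240 TPM), the clathrin adaptor subunit Ap2m1 (196 TPM) and Gipc1 (116 TPM), which binds megalin's tail. The megalin chaperone Lrpap1 had 6180 to 13785 counts and a log2 fold change of 0.30 (SE 0.226, BH-adjusted p = 0.999). Gipc1 (log2 fold change 0.44, adjusted p = 0.942) was among the 5 and did not pass the DESeq2 test after adjustment. Groups did not overlap for 2 of 13 endocytosis, 1 of 10 glucose and 1 of 13 amino acid genes, and for 0 genes of the other 4 lists, beside 2.71% of all genes. Pck1 is named after its values were seen. In the glucose list Pdzk1ip1, a small membrane protein known to bind the glucose cotransporter, was the most abundant (mean 526 TPM), at a log2 fold change of -1.49 (DESeq2 adjusted p = 0.942). Pck1, of gluconeogenesis, had 158, 69, 26 and 19 counts in DMSO 3, 5, 15 and 20 and 1, 3, 0 and 13 in DOX 9, 12, 19 and 21 (log2 fold change -4.02, SE 1.29, adjusted p = 0.280 in DESeq2). Without DOX 21 it was called (log2 fold change -5.96, adjusted p = 0.0084). The basolateral glucose carrier Slc2a2 had at most 120 counts. Of the other proximal genes, Miox, Slc22a12, Slc7a13 and Cyp2e1 were at 0 in every library, as were Slc34a3 and G6pc.

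Among the regulators, Hnf4a, the factor confined to the proximal tubule within the nephron, had 81, 110, 0 and 0 counts in DMSO 3, 5, 15 and 20 and 0, 70, 2 and 0 in DOX 9, 12, 19 and 21. Slc5a1 and Tmem27 were highest in DMSO 3, DMSO 5, DOX 9 and DOX 12. Some markers of other segments were also highest there. Summed TPM of 7 loop and distal markers was 42.4, 93.0, 20.8 and 40.7 in those libraries and 0.0114 to 4.58 in the rest, and that of 9 principal cell markers was 137, 496, 55.4 and 120, against 14.3 to 42.0. The 5 intercalated cell markers summed to 10.6, 8.20, 4.58 and 7.94 TPM in those libraries, 6.59 TPM in DOX 21 and 0 to 2.86 TPM in the rest. Their part in the levels was not tested. The defining principal cell gene Aqp2 had 2 counts in DOX 9 and 0 elsewhere. The epithelial markers were all above 0 in every library. Markers of podocytes, endothelium, macrophages, intercalated cells, stroma and injury with an adjusted p numbered 3, 5, 3, 4, 8 and 5. Of these, 0 were called, beside 0.147% of all genes tested.

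**Figure D5:**
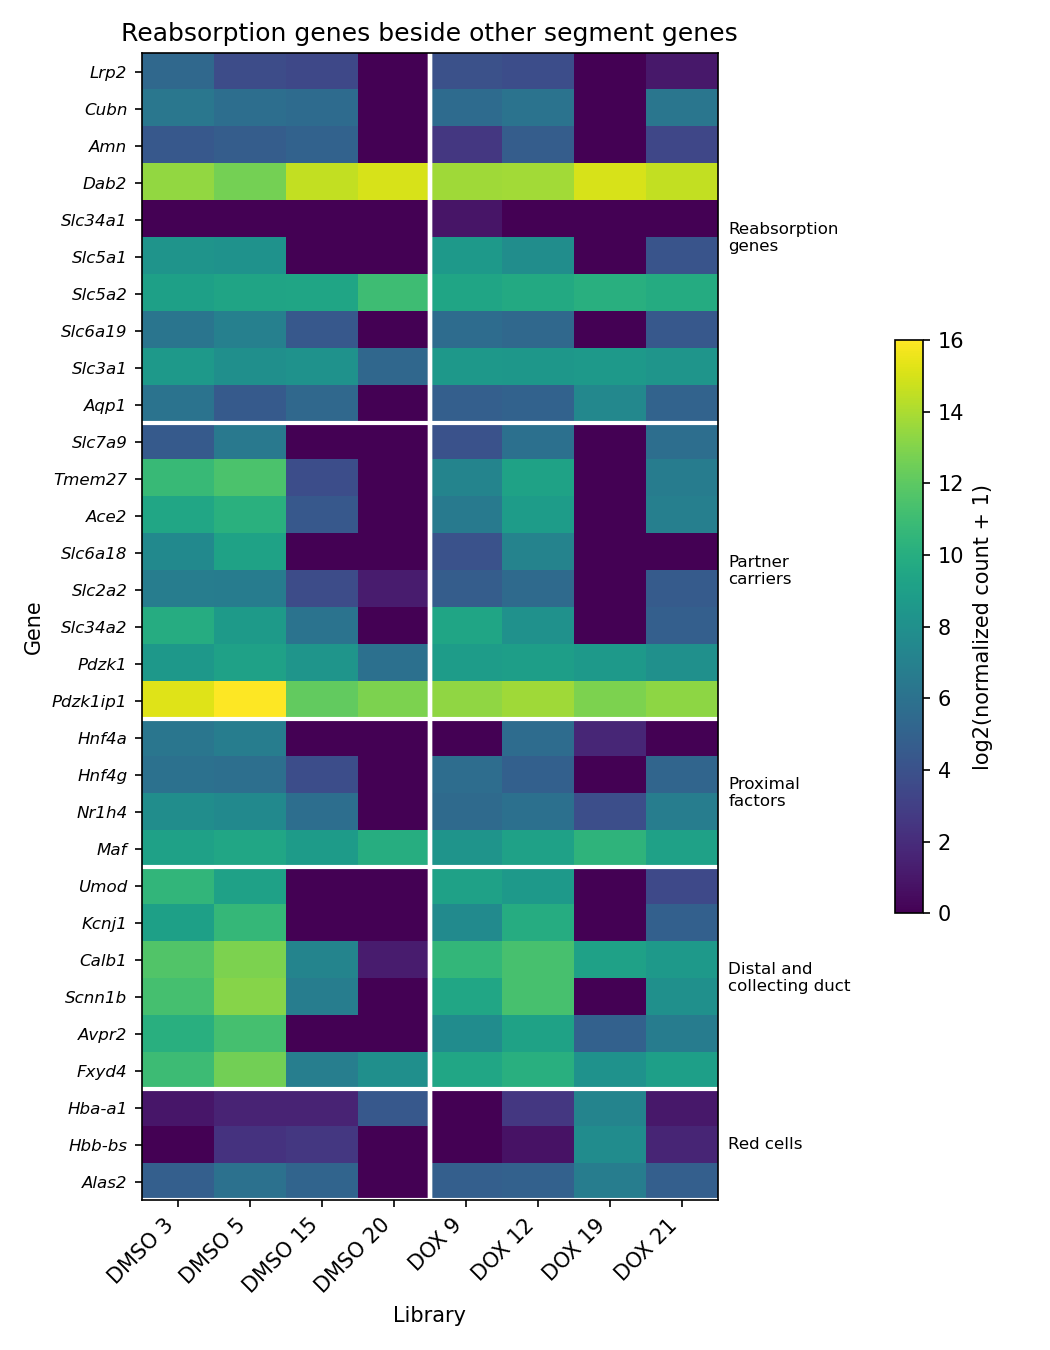
Heat map of log2(normalized count + 1) for the reabsorption genes, partner carriers, proximal factors, distal and collecting duct markers and red cell genes, with 4 DMSO libraries left and 4 DOX libraries right of the white line. DMSO 20 and DOX 19 are dark for most carriers, and DMSO 3 and DMSO 5 are brightest for Tmem27 (1921 and 2863 counts).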

How the data were processed

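RNA of 8 tubuloid libraries was prepared with the SMART-Seq v4 kit, which selects poly-A RNA and does not mark strand. Per the labels, the authors aligned to mm10/GRCm38 with STAR, counted with featureCounts and tested with DESeq2; versions and the handling of shared reads are not given in the sources used here. The deposited tables give a count, an FPKM and a TPM per RefSeq transcript. Counts and TPM were summed by symbol, and FPKM served to derive transcript lengths. DOX and DMSO counts (n = 4 each) were compared with the DESeq2 1.42.0 Wald test in R 4.3.3, over all genes, adjusted by Benjamini-Hochberg. The threshold for a call was an adjusted p of 0.05 and a 1.5-fold difference. edgeR 4.0.16, other filters and scalings, and leaving out libraries were the alternatives. The paper describes each library as a culture, but no source used here says whether the cultures came from separate animals, so p-values measure the spread between cultures. The libraries ran in 2 lanes, and which lane held which is not given, so lane could not be checked.

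The members and lists were chosen with earlier results of these data known. Named genes were the members, Pkd2, direct partners, and the 3 genes of highest mean TPM and any called gene per list. For members with a mean normalized count of at least 50, the nearest genes by pattern were named too. BC017158 and Prepl were chosen for exon overlap (GENCODE M21). The methods give a younger age range than the labels. Planned permutation tests of 5 ratios were not run, since each had a 0 in at least 1 library. Some genes that the rule names are not reported here.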

Additional observations from a re-analysis of the deposited data

Results flagged for a closer look

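Dixon's test for a library far from the others of its group was run on 18 sets of 4 log2(normalized count + 1) values, 9 genes in 2 groups, against its 95% critical value; chance alone singles out about 1 in 20, or 0.9 of 18. It singled out 5. Cubn was lowest in DMSO 20 (gap over range 0.889; 0 on the log2 scale against 5.62 to 6.32 in the other DMSO libraries) and lowest in DOX 19 (0.899; 0 against 5.63 to 6.26). Amn was lowest in DMSO 20 (0.876; 0 against 4.42 to 5.05). Slc5a2 was highest in DMSO 20 (0.843; 11.0 against 9.10 to 9.41). Aqp1 was highest in DOX 19 (0.890; 7.50 against 4.82 to 5.11). The Cubn and Amn values singled out are counts of 0, whose distance from the others on this scale depends on the added 1. All 5 are in DMSO 20 or DOX 19, the libraries that detected the fewest genes.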

How the results depend on the processing

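In each of 14 alternatives 0 reabsorption genes were called and 0 had an unadjusted p under 0.05; 3 (at least 10 counts in every library) to 10 of them had an adjusted p, and 4 without DMSO 15. Of 120 alternative fold changes of the 9 genes with a fold, 107 kept their direction and 13 reversed, with a smallest adjusted p of 0.714. The number of all genes called was 25, and 0 in edgeR, 16 with at least 10 counts in every library, 44 without Cook's distance and independent filtering, and 51 in 3 against 3 libraries; it stayed within 1.5 times with TMM factors (22) and 1 transcript per gene (28). Leaving out 1 library gave 14 (without DMSO 3) to 75 (without DMSO 15) calls, with 48 without DMSO 20 and 38 without DOX 21. The number of partner genes called was 1 (Slc3a2), and 0 in edgeR and with at least 10 counts; leaving out 1 library gave 0 to 1, where the 1 was Pck1 without DOX 21 and Slc3a2 without DMSO 15, DOX 9 or DOX 19. The causes were not tested.

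In 3 against 3 libraries the log2 fold change reversed to 0.39 for Slc5a2, -0.50 for Aqp1 and -0.23 for Maf. Leaving out 1 library reversed these log2 fold changes, with ranges of -0.32 to 0.51 (Cubn), -0.12 to 0.61 (Dab2), -0.85 to 0.80 (Slc5a1), -0.37 to 0.49 (Slc5a2), -0.10 to 1.66 (Aqp1), -0.27 to 2.11 (Slc7a9), -0.34 to 1.33 (Slc20a1), -0.021 to 0.44 (Pth1r), -0.61 to 0.14 (Slc2a1), -0.48 to 0.26 (Atp1b1), -0.50 to 0.29 (Maf), -0.36 to 0.34 (Ass1) and -0.33 to 0.048 (Mme). Without reversing, leaving out 1 library moved Lrp2 from -1.76 (DOX 9) to -0.056 (DMSO 3), Amn from -2.004 (DOX 12) to -0.57 (DOX 19), Slc6a19 from -1.42 (DOX 9) to -0.17 (DMSO 5), Slc3a1 from 0.23 (DMSO 20) to 0.93 (DMSO 3) and Pdzk1ip1 from -1.85 (DMSO 15) to -0.70 (DMSO 5), the library left out in brackets. In the same way Pkd2 moved from -0.41 (DMSO 5) to -0.20 (DMSO 20) and Lrpap1 from 0.23 (DMSO 15) to 0.46 (DMSO 20). No paired analysis was possible because the groups share no library number. Besides Slc34a1, 6 of the 10 genes had a mean level under 1 TPM and at least 1 library at 0 counts.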
